A study of Homo sapiens with 12 samples.

Results

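The transcripts of 10 genes of the pericellular proteolysis machinery were followed through FAT1 knockdown (KD) in the oral squamous cell carcinoma (OSCC) lines HN6 and HN30: the matrix metalloproteinases MMP1, MMP2, MMP3, MMP9, MMP10, MMP13 and MMP14, the plasminogen activator PLAU, its receptor PLAUR and the inhibitor TIMP1. They were chosen by symbol and make up 10 of the 19225 entries of the count table. FAT1 is an atypical cadherin, and each line was transfected in 6-well plates with a scrambled siRNA (NC group) or with 1 of 2 siRNAs against human FAT1, named FAT1-sh1 and FAT1-sh2 in the labels and siFAT1-1 and siFAT1-2 here, with Lipofectamine RNAiMAX. Poly(A) RNA was taken 24 h later and the experiment was repeated at a separate time, which gave 6 conditions with 2 repeats each and 12 libraries. The transfection was transient, every library came from cells that had received an siRNA, and each line is 1 established line.

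Metalloproteinases are secreted or membrane-bound zinc enzymes that are made as inactive precursors and cut the proteins of the extracellular matrix. Urokinase, the product of PLAU, binds its receptor at the cell surface and turns plasminogen into plasmin, which degrades matrix and activates several MMP precursors, while TIMPs block the active MMPs. In squamous carcinoma these genes are known from the invasive front, where some are made by the tumor cells and some by the stroma, and several of them are classical targets of AP-1 transcription factors.

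Of the 10 genes, 4 lie on the minus strand of chromosome 11 in GENCODE 44 (GRCh38), in the MMP gene cluster within the stretch chr11:102770502-102955732: MMP10, MMP1, MMP3 and MMP13. The canonical transcript of MMP9 spans chr20:46008908-46016561 on the plus strand, that of PLAU chr10:73911132-73917494 on the plus strand, and that of PLAUR chr19:43648579-43670169 on the minus strand. MMP2 is on the plus strand of chromosome 16 (55479198 to 55506691), MMP14 on the plus strand of chromosome 14 (22836585 to 22847758) and TIMP1 on the plus strand of chromosome X (47582436 to 47586789).

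Promoter windows of 300 bases from RefSeq (GRCh38.p14), 250 before a start and 50 after it, were matched for 5 of the 10 genes: MMP10, MMP14, PLAU, PLAUR and TIMP1. The AP-1 motif was searched as the loose pattern TGANTCA, with N for any base, which as a pattern reads the same on both strands. It was found in the windows of MMP10 and PLAUR, and in 7.71% of all 35116 windows. It was not found in the windows of MMP14, TIMP1 or PLAU, the last with 2 starts. MMP1, MMP2, MMP3, MMP9 and MMP13 had no window and were not searched. The stretches around the matches are shown because AP-1 is a known input to several of the 10 genes. They run 5′ to 3′ on the gene's strand with the motif in capitals. The match of MMP10 ends 60 bases before the start (stretch chr11:102780659-102780725, minus strand), and that of PLAUR ends 179 bases before it (stretch chr19:43670338-43670366, minus strand, inside the 5′ end of a longer annotated transcript).
MMP10: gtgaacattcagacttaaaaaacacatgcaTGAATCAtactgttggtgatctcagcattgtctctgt
PLAUR: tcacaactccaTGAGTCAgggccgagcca
A match of letters describes the window and says nothing of binding in these cells, where no binding was measured.

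The libraries held between 26430049 and 47639010 counts. FAT1 itself, the target of the siRNAs, was at 56.9 and 66.9 CPM (reads counted for a gene scaled to the TMM-adjusted size of the library) in the 2 NC libraries of HN6, between 7.59 and 21.4 CPM in its 4 KD libraries, at 13.6 and 14.7 CPM in the NC libraries of HN30 and between 4.84 and 10.8 CPM in its KD libraries. Every KD library was below both NC libraries of its line, with a log2 fold change of -1.59 ± 0.308 (SE, 8 KD against 4 NC libraries, edgeR adjusted p = 0.0404). The fall was unequal between the lines, at -2.11 ± 0.397 in HN6 (adjusted p = 0.814) and -0.94 ± 0.351 in HN30 (adjusted p = 0.492). It was smallest with siFAT1-2 in repeat 1 of HN30, at 10.8 CPM against 13.6 CPM in the NC library of that repeat. All 8 squamous epithelial markers looked for passed 1 CPM in at least 1 library, and they summed to 1101 to 4619 CPM. KRT14 did so in HN6 only and had at most 2 counts in a library of HN30. Of the markers of other cell types, the 8 of fibroblasts summed to 69.4 to 163 CPM in HN6 and to no more than 49.9 CPM in HN30, mainly COL1A1, the 7 of leukocytes to 6.51 to 33.5 CPM, mainly CSF1R, and the 4 of endothelium to 0.202 to 7.85 CPM. The pan-leukocyte gene PTPRC had at most 1 count in a library, and CD163 had none in any.

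All 10 genes passed the low-count filter over both lines, and they covered a wide range of abundance. Per kilobase of spliced transcript, PLAU was the most abundant of them in both lines, with a median over 6 libraries of 566 CPM per kb in HN6 and 335 in HN30. In HN6 it was followed by MMP14 (296), PLAUR (161), TIMP1 (88.2), MMP2 (40.3) and MMP9 (23.3), and then, after a gap that no library bridged, by MMP13 (1.00), MMP1 (0.347), MMP10 (0.213) and MMP3 (0.0138). The ranges of all other neighbours in this order overlapped, although PLAU was above MMP14 and MMP14 above PLAUR in 6 of 6 libraries. In HN30 the order was PLAU, TIMP1 (104), PLAUR (72.1), MMP14 (67.6) and MMP2 (5.27), and the only neighbours whose ranges did not overlap were MMP14 and MMP2. The rest of HN30 was at or under 1 CPM per kb in the median: MMP1 at 0.874, MMP3 at 0.279, MMP9 at 0.163, MMP13 at 0.0558 and MMP10 at 0.0166. PLAU and MMP14 together made up between 48.2% and 75.0% of the summed level of the 10 genes per kilobase, depending on the library.

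**Figure D1:**
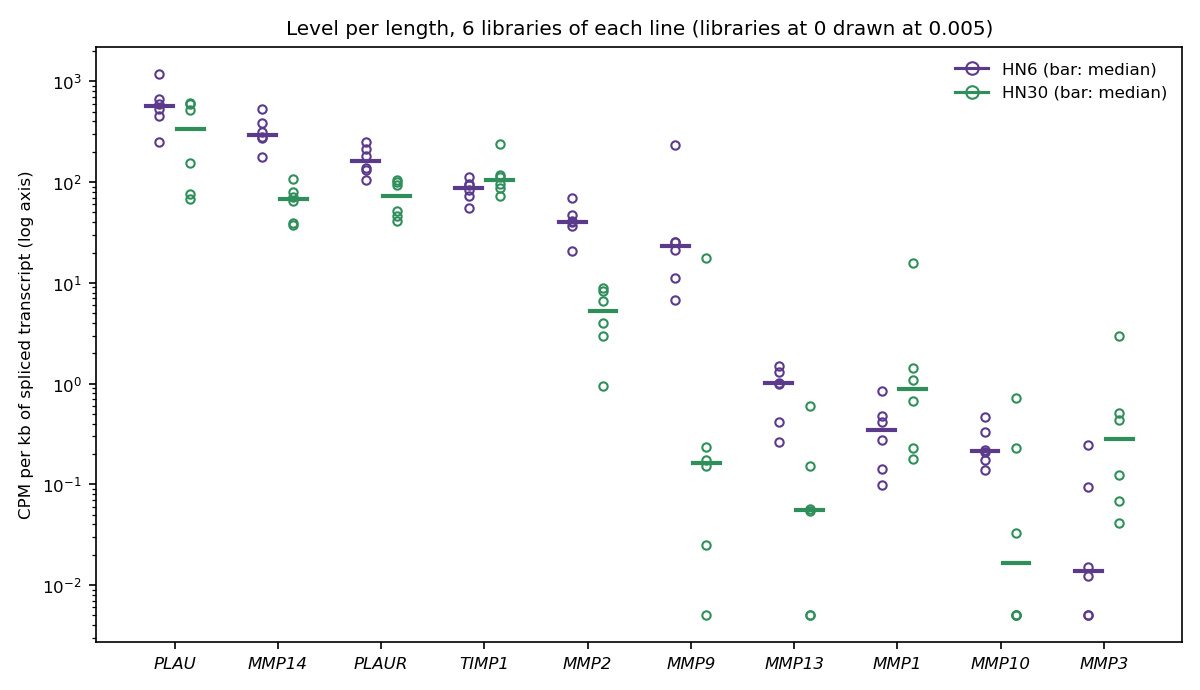
Level of each gene per kilobase of spliced transcript on a log axis, in the 6 libraries of HN6 (purple) and of HN30 (green); open circles are libraries, bars are medians, and libraries at 0 are drawn at 0.005. PLAU has the highest median in both lines, and MMP2 and MMP14 of HN30 lie below those of HN6 without overlap.

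The lines differed in this repertoire. With KD as a term, 5 of the 10 genes were higher in HN6 and 2 were lower at the thresholds of the study, an unadjusted P under 0.05 with a log2 fold change beyond 1 in either direction, against 30.9% of all 13887 genes tested, 14.7% of them higher in HN6. MMP14, the membrane-type enzyme that activates the MMP2 precursor at the cell surface, ranged from 658 over a median of 1096 to 1973 CPM in HN6 and from 137 over 250.2 to 399.6 CPM in HN30. Its log2 difference was 2.29 ± 0.298 (SE, 6 against 6 libraries, edgeR adjusted p = 4.47e-05). MMP2, a gelatinase, ranged from 72.4 over 141 to 247 CPM in HN6 and from 3.36 over 18.5 to 31.6 CPM in HN30, a log2 difference of 2.99 ± 0.476 (adjusted p = 0.000218). For MMP14 and MMP2, 2 of the 10 genes, no library of HN30 reached the lowest library of HN6, a separation seen in 26.1% of all genes tested in either direction.

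MMP9, the other gelatinase, was higher in HN6 by 5.87 ± 1.17 on the log2 scale (adjusted p = 0.00118), with 15.7 to 542 CPM there and 0 to 41.2 CPM in HN30, where a single library overlapped the range of HN6. PLAUR was higher by 1.22 ± 0.297 (adjusted p = 0.00438) with overlapping ranges, 142 to 345 CPM in HN6 and 56.3 to 144 CPM in HN30. MMP13, a collagenase, was higher in HN6 by 2.96 ± 0.953 (adjusted p = 0.0204), at 0.718 to 4.08 CPM against 0 to 1.62 CPM. MMP3, a stromelysin, went the other way by -3.41 ± 1.17 (adjusted p = 0.0284), but from 0 to 14 counts per library in HN6 and 2 to 188 in HN30. MMP1, the interstitial collagenase, was lower in HN6 by -2.25 ± 0.920 (adjusted p = 0.0577), and without the first NC library of HN30 its log2 difference was -0.89 (adjusted p = 0.338). PLAU, TIMP1 and MMP10 did not pass, with log2 differences of 0.81 ± 0.563, -0.48 ± 0.235 and 0.97 ± 0.944.

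In the 4 NC libraries alone, without any FAT1 siRNA, 3 of the 9 genes that could be tested were higher in HN6 and none was called lower, against 27% of all genes. They were MMP2 (log2 difference 3.47 ± 0.549, edgeR adjusted p = 0.0244), MMP14 (2.45 ± 0.591, adjusted p = 0.0559) and PLAUR (1.39 ± 0.451, adjusted p = 0.102). At an unadjusted P under 0.05 the count called lower was 0 as well, limma-voom gave 0 and DESeq2 gave 1. With the repeat as a replicate block the thresholds were passed by 6 genes, MMP9 (5.30, adjusted p = 0.0443), PLAU (1.47, adjusted p = 0.0563) and MMP1 (-2.70, adjusted p = 0.161) being added. That fit called 3663 of all 13672 genes tested. It fitted both the line and the repeat to 4 libraries, which left little to estimate the spread from.

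**Figure D2:**
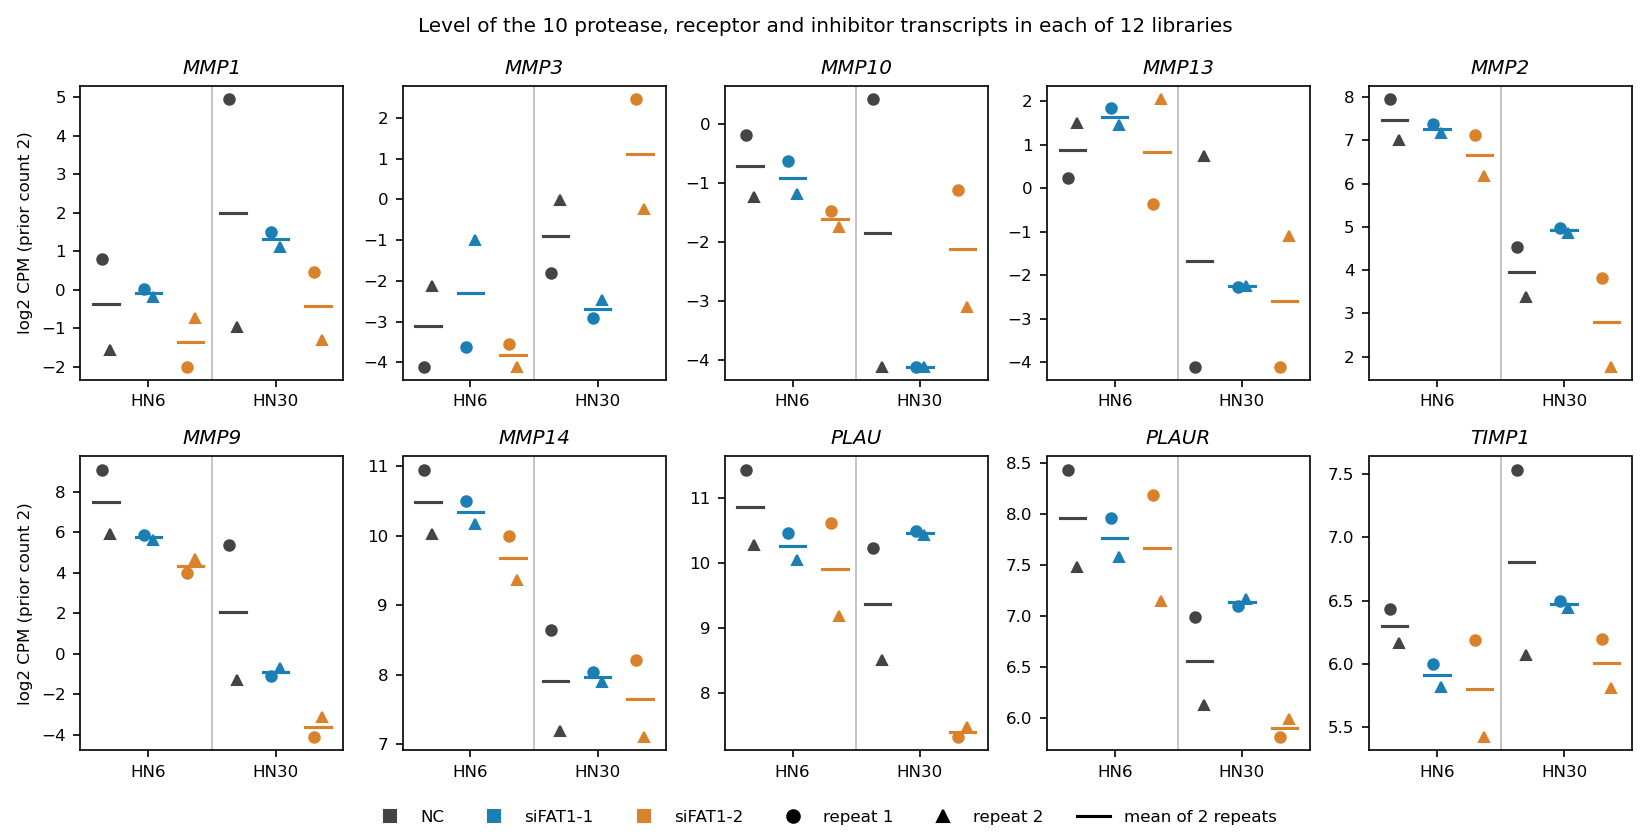
log2 CPM (prior count 2) of each gene in all 12 libraries, HN6 to the left and HN30 to the right of the grey line in each panel; colours mark NC (grey), siFAT1-1 (blue) and siFAT1-2 (orange), circles are repeat 1, triangles repeat 2, and bars the mean of 2 repeats. In MMP1, MMP9, MMP10, MMP14 and TIMP1 the first NC repeat stands above every other library of its line, and the siFAT1-1 repeats of HN30 lie close together in most panels.

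Whether FAT1 KD moved these genes was asked first over both lines and both siRNAs. Of the 10 genes, 2 were lower at the study's thresholds and 0 were higher, against 3.07% of all genes tested in either direction. The 2 were MMP9 and MMP1, and neither had an adjusted p under 0.05. At an unadjusted P under 0.05 alone, edgeR counted 3 lower and 0 higher, limma-voom 1 and 0, and DESeq2 3 and 0. That looser threshold was passed by 2016 of all 13887 genes tested with edgeR, in either direction. The fitted log2 fold change was below 0 for 9 of the 10 genes, with a median of -0.49 against 0.02 over all genes tested. For none of the 10 were all 8 KD libraries below both NC libraries of their line, as they were for 3.2% of all genes.

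MMP9, whose product cleaves denatured collagen and basement membrane collagen, was at 542 and 59.4 CPM in repeats 1 and 2 of the NC group of HN6, at 59.0 and 49.9 CPM with siFAT1-1 and at 15.7 and 25.9 CPM with siFAT1-2. In HN30 it was at 41.2 and 0.353 CPM in the NC group, at 0.410 and 0.554 CPM with siFAT1-1, and at 0 and 0.0584 CPM with siFAT1-2, the last of them from 0 and 2 counts. A count of 0 in that library allows up to 0.0864 CPM for counting error only. All 4 KD libraries of HN6 were below both NC libraries, at the closest 59.0 against 59.4 CPM, a separation found in 9.51% of the genes tested in HN6. In HN30 the siFAT1-1 libraries lay above the second NC library. The log2 fold change over both lines was -4.70 ± 1.06 (SE, 8 against 4 libraries, edgeR adjusted p = 0.0706), the largest of the 10.

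Within the lines MMP9 changed by -2.98 ± 0.775 in HN6 (edgeR adjusted p = 0.814), the 1 gene of 9 called there, against 3.08% of all genes, and by -6.36 ± 1.61 in HN30 (adjusted p = 0.394), where MMP9 and MMP1 were the 2 of 10 called, against 4% of all genes. These values rested on the first NC repeat. Without it the fold change of MMP9 was -0.63 in HN6 (adjusted p = 0.732) and -0.46 in HN30, and neither was called. With the repeat as a replicate block, HN30 gave -5.32 (adjusted p = 0.626) and lost the call. Over both lines, leaving out the first NC repeat of HN30 gave -2.45 (adjusted p = 0.421), still called, and the blocked value was -3.59 (adjusted p = 0.225), also called.

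MMP1 was at 30.8 CPM in the first NC library of HN30 and at 0.454 CPM in the second, at 2.79 and 2.12 CPM with siFAT1-1 and at 1.32 and 0.351 CPM with siFAT1-2. In HN6 it did not pass 1.68 CPM in any library. The KD libraries of HN30 thus lay between its 2 NC libraries, apart from the second of siFAT1-2, which was below both. The log2 fold change over both lines was -2.18 ± 0.914 (SE, 8 against 4 libraries, edgeR adjusted p = 0.301) and in HN30 -3.25 ± 1.23 (adjusted p = 0.495). Without the first NC library of HN30 these became 0.09 (adjusted p = 0.985) and 1.86, and with a replicate block -1.21 (adjusted p = 0.591) and -2.17 (adjusted p = 0.748), so that neither call was kept.

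The 2 NC libraries of each line were then compared with each other. In HN30, MMP9 was 117-fold higher in NC repeat 1 than in NC repeat 2, rank 1 of 13887 genes by the log2 CPM difference, and MMP1 was 67.8-fold higher, rank 4. MMP10 had 45 counts in the first and 0 in the second, rank 7. In HN6 the same ratio was 9.13-fold for MMP9 and 5.93-fold for MMP1, with 1.65% and 4.33% of genes showing a larger difference. PLAU was 2.23-fold higher in NC repeat 1 of HN6 and 3.32-fold in that of HN30, and MMP14 was 1.90-fold and 2.75-fold higher. MMP2 (1.91-fold and 2.21-fold), PLAUR (1.94-fold and 1.81-fold) and TIMP1 (1.21-fold and 2.75-fold) went the same way. Only MMP3 and MMP13 were lower in the first repeat, in both lines.

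In all, 8 of the 10 genes were higher in NC repeat 1 in both lines, against 21.4% of all genes tested. A log2 difference over 1 was found in 15.7% of all genes in HN6 and in 4.33% in HN30. FAT1 differed little, at 0.851-fold in HN6 and 0.924-fold in HN30. This compares single libraries, and no test is given. The part of the time of the experiment in it was not tested.

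**Figure D3:**
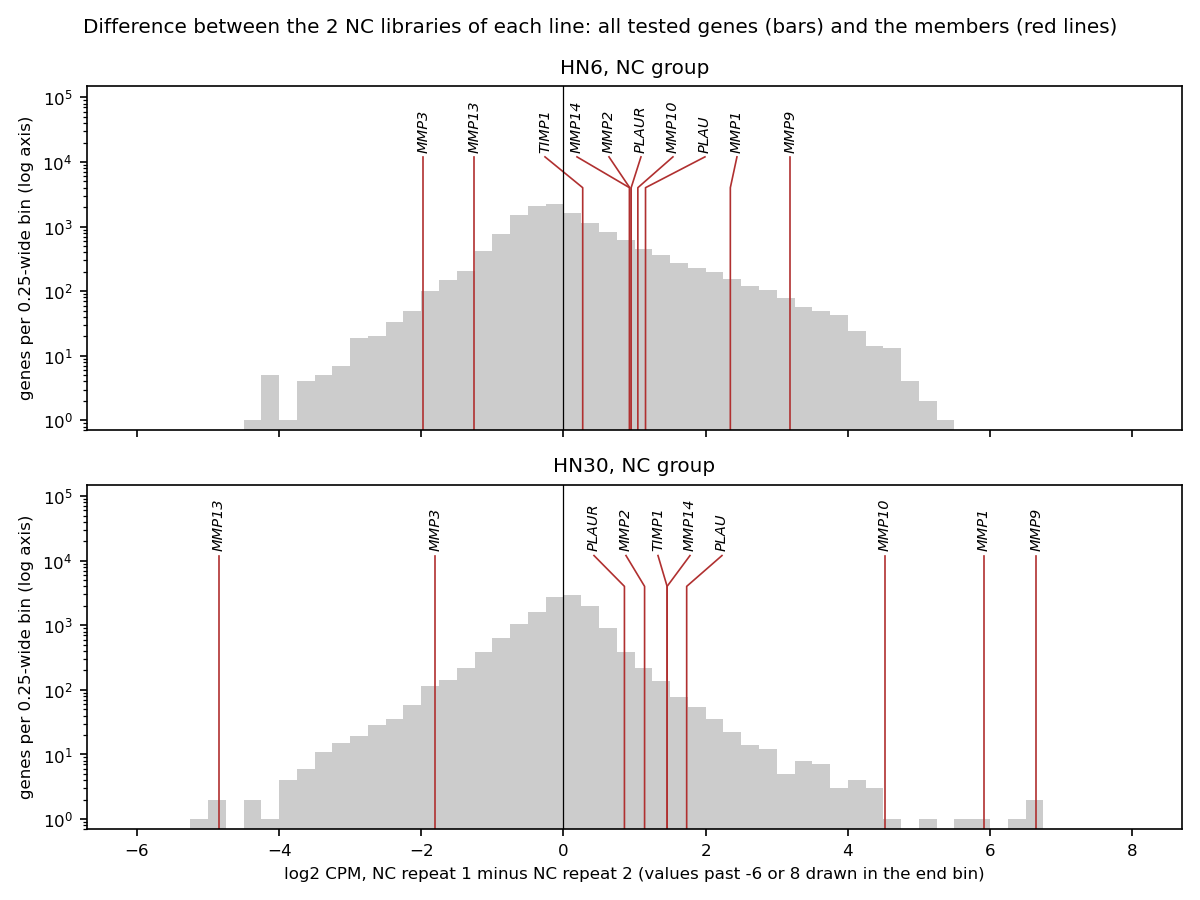
Difference in log2 CPM between NC repeat 1 and NC repeat 2 in HN6 (top) and HN30 (bottom); grey bars count all 13887 tested genes per bin on a log axis, and red lines mark the 10 genes. In HN30, MMP9, MMP1 and MMP10 lie in the far right tail, and in both lines only MMP3 and MMP13 lie left of 0.

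Set against the NC library of the same line and repeat, MMP9 was lower in 7 of 8 KD libraries. The median difference was -5.78 on the log2 CPM scale over the 4 pairs of repeat 1 and -0.72 over the 4 pairs of repeat 2. In repeat 2 the values were -0.25 and 0.57 with siFAT1-1 in HN6 and HN30, and -1.20 and -1.82 with siFAT1-2. For MMP1 the medians were -3.11 in repeat 1, with 4 of 4 pairs below 0, and 1.10 in repeat 2, with 1 of 4 below 0. TIMP1 was lower in 7 of 8 pairs by smaller amounts, with medians of -0.73 and -0.30, and FAT1 in 8 of 8, with medians of -1.79 and -1.44. Fits within 1 repeat, chosen after these values were seen, gave MMP9 a log2 fold change of -5.83 in repeat 1 (edgeR adjusted p = 0.774) and of -0.48 in repeat 2 (adjusted p = 0.874). The repeat 2 fit did not call MMP9.

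**Figure D4:**
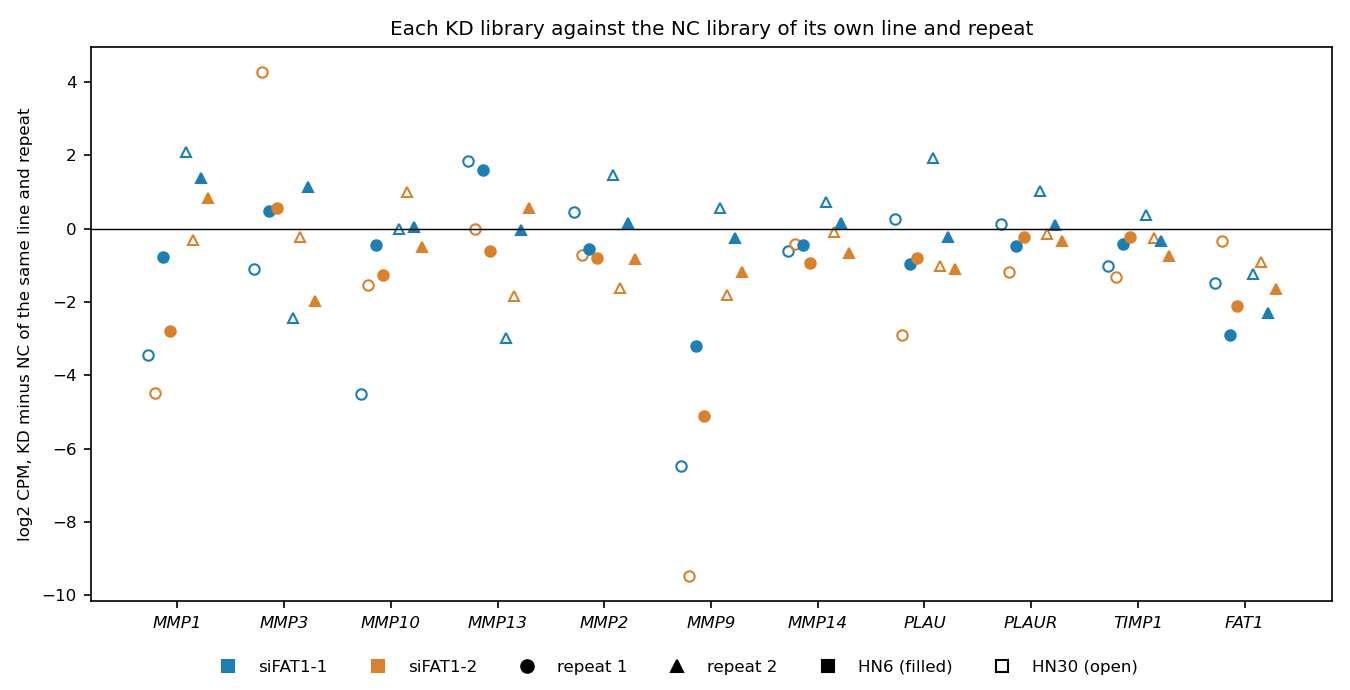
log2 CPM of each KD library minus that of the NC library of the same line and repeat; circles are repeat 1, triangles repeat 2, blue siFAT1-1, orange siFAT1-2, filled symbols HN6 and open symbols HN30. MMP9 has a median of -5.78 in repeat 1 and of -0.72 in repeat 2, MMP1 of -3.11 and 1.10, and FAT1 is below 0 in all 8 pairs.

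TIMP1, the inhibitor of the group, was at 86.3 and 71.5 CPM in the NC group of HN6, at 64.1 and 56.3 CPM with siFAT1-1 and at 72.9 and 42.9 CPM with siFAT1-2. In HN30 it was at 185 and 67.2 CPM in the NC group, at 90.2 and 87.1 CPM with siFAT1-1 and at 73.4 and 56.1 CPM with siFAT1-2. The KD and NC libraries overlapped in both lines. Its log2 fold change of -0.57 ± 0.244 (edgeR adjusted p = 0.316) was short of the study's fold threshold. MMP14 gave -0.36 ± 0.298 (adjusted p = 0.607), from 1973 and 1037 CPM in the NC group of HN6 and 658 to 1444 CPM in its KD libraries, and from 400 and 145 CPM in the NC group of HN30 and 137 to 296 CPM in its KD libraries.

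The stromelysins and collagenase MMP13 were too scarce for firm statements. MMP3 was the only gene with a fold change above 0, 1.07 ± 1.26 (edgeR adjusted p = 0.725), and its highest level, 5.41 CPM, stood in the first siFAT1-2 library of HN30, where the second had 0.789 CPM. MMP10 gave -1.50 ± 0.950 (adjusted p = 0.491) and had no count in 3 of the 6 HN30 libraries, the second NC library and both of siFAT1-1. MMP13 gave -0.87 ± 0.952 (adjusted p = 0.702), from 0.718 to 4.08 CPM in HN6 and 0 to 1.62 CPM in HN30. In bulk RNA, fewer cells that make a transcript and less of it per cell cannot be told apart.

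The test of whether the KD effect differs between HN6 and HN30 called 0 of the 10 genes, against 1.79% of all genes tested. The counts at an unadjusted P under 0.05 were also 0 with edgeR, limma-voom and DESeq2. The interaction terms had wide errors, 3.37 ± 1.95 for MMP9 and 2.63 ± 1.72 for MMP1 on the log2 scale, so a difference between the lines of several log2 units was within error. FAT1 itself passed the thresholds here, at -1.22 ± 0.556 (edgeR unadjusted P = 0.0493), with the larger fall in HN6. Of all genes tested, 0 had an adjusted p under 0.05 for this term.

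The siRNAs were then taken apart. Both are compared with the same 4 NC libraries. With siFAT1-1, 1 of the 10 genes was called lower, MMP9 (log2 fold change -4.05 ± 1.24, 4 against 4 libraries, edgeR adjusted p = 0.102), and 0 were higher, against 5.58% of all genes tested. Without the first NC library of HN30 it was -1.66 (adjusted p = 0.386) and no longer called. With siFAT1-2, 3 were called lower and 0 higher, against 9.06% of all genes. At an unadjusted P under 0.05 alone no gene was higher with either siRNA by edgeR, limma-voom or DESeq2. The medians over the 10 genes were -0.30 with siFAT1-1 and -0.90 with siFAT1-2, against 0.00 for all genes in both.

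MMP9 fell by 5.59 ± 1.33 on the log2 scale with siFAT1-2 (4 against 4 libraries, edgeR adjusted p = 0.0212), and it was the only one of the 10 genes with an adjusted p under 0.05 in any comparison with NC by this test. All 4 siFAT1-2 libraries were below both NC libraries of their line, 1 gene of 10, against 12.9% of all genes tested. The call held without each library in turn, with fold changes between -6.34 and -3.68 and adjusted p-values between 0.0108 and 0.0608, and with a replicate block (-4.66, adjusted p = 0.0414). With no cell line term it was lost (-3.95). With limma-voom, the tool the study used, the fold change was -3.54 and the adjusted p 0.0686, so that the gene was still called but 0 of the 10 had an adjusted p under 0.05. MMP1 gave -3.10 ± 1.11 (adjusted p = 0.0907), and without the first NC library of HN30 it gave -0.76 (adjusted p = 0.589), no longer called.

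PLAU was called lower with siFAT1-2, at -1.39 ± 0.570 (edgeR adjusted p = 0.130). In HN30 it was at 1206 and 363 CPM in the NC group, at 1442 and 1384 CPM with siFAT1-1 and at 160 and 177 CPM with siFAT1-2. Thus in HN30 the siFAT1-2 libraries were below and the siFAT1-1 libraries above both NC libraries. Each group held 2 libraries, and the share of all genes in this order was not counted. In HN6 it was at 2769 and 1244 CPM in the NC group, at 1409 and 1062 CPM with siFAT1-1 and at 1576 and 580 CPM with siFAT1-2, and the groups overlapped. Without the first NC library of HN6 or of HN30 the value was -1.08 or -1.10 and not called, and the same was true without the second siFAT1-2 library of HN6 (-1.29) or either siFAT1-2 library of HN30 (-1.10 and -1.12).

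**Figure D5:**
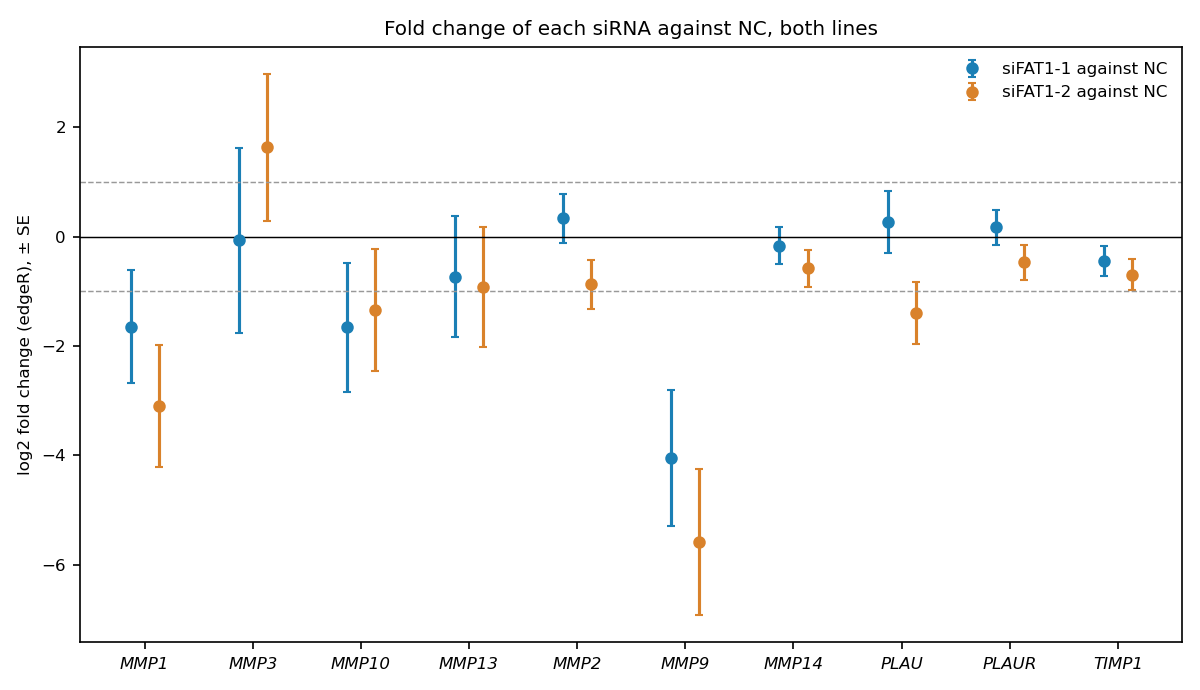
log2 fold change ± SE (edgeR) of siFAT1-1 (blue) and siFAT1-2 (orange) against NC over both lines, 4 against 4 libraries each; dashed lines mark a log2 fold change of 1 in either direction. MMP9 lies lowest with both siRNAs, and PLAU, PLAUR, MMP2 and MMP3 each lie on opposite sides of 0 with the 2 siRNAs.

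Compared directly, without the NC group, 2 of the 10 genes were higher with siFAT1-1 than with siFAT1-2, PLAU and MMP2, and 0 were lower, against 12.4% of all genes tested in either direction. No gene was lower at an unadjusted P under 0.05 by edgeR, limma-voom or DESeq2. PLAU differed by 1.66 ± 0.605 on the log2 scale (4 against 4 libraries, edgeR adjusted p = 0.0766). MMP2 differed by 1.21 ± 0.452 (adjusted p = 0.0826). It was at 167 and 143 CPM with siFAT1-1 and at 140 and 72.4 CPM with siFAT1-2 in HN6, and at 31.6 and 29.0 CPM against 14.0 and 3.36 CPM in HN30, with the NC group at 247 and 129 CPM and at 23.1 and 10.4 CPM. With a replicate block the adjusted p was 0.0459 for PLAU and 0.0285 for MMP2.

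The siFAT1-1 libraries were above both siFAT1-2 libraries in each line for MMP1, MMP2 and MMP9, 3 of the 10 genes, against 17.9% of all genes tested. PLAU missed this only in HN6. The calls did not hold without certain libraries of HN30: PLAU gave 1.30 and 1.33 without the first and the second siFAT1-2 library, and MMP2 gave 0.86 without the second siFAT1-2 library and 1.05 without the first siFAT1-1 library. The log2 difference of MMP9 was 1.54 ± 1.14 (adjusted p = 0.365) and that of MMP1 1.45 ± 1.06 (adjusted p = 0.358), so neither was shown to differ between the siRNAs, although MMP9 passed the thresholds (2.02, adjusted p = 0.101) without the first NC library of HN30. FAT1 was lower with siFAT1-1 by -0.73 ± 0.307 (adjusted p = 0.119). Of the 8 squamous markers, 4 were called higher with siFAT1-1 than with siFAT1-2, all of them keratins, KRT17 by 2.82 ± 0.397 (adjusted p = 0.00145). The other 4 did not pass the fold threshold, and 3 of the 8 were below 0, among them DSG3 at -0.94 ± 0.289 (adjusted p = 0.0422), so the markers did not run 1 way, and their part in these values was not tested.

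PLAUR, the urokinase receptor, passed no comparison between the siRNAs or with NC. In HN6 it was at 345 and 178 CPM in the NC group, at 248 and 191 CPM with siFAT1-1 and at 292 and 142 CPM with siFAT1-2. In HN30 it was at 127 and 70.2 CPM, at 137 and 144 CPM and at 56.3 and 63.7 CPM in the same order. As for PLAU, the HN30 libraries of siFAT1-2 were below and those of siFAT1-1 above both NC libraries, an order whose share of all genes was not counted. The difference between the siRNAs was 0.64 ± 0.323 on the log2 scale (edgeR adjusted p = 0.187).

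Across the 12 libraries, with log2 CPM centred within each line, PLAU and PLAUR ran closely together (Pearson r = 0.953). The genes most like PLAU were COL6A2 (r = 0.985) and COL6A1 (r = 0.967), with PLAUR next, and those most like PLAUR were CYTH2 (r = 0.963), PLAU and PERM1 (r = 0.953). ANXA2 (r = 0.955) and TUBB6 (r = 0.945) were among the genes most like MMP9, and ADK and GAS6 (both r = 0.919) among those most like MMP1. MMP9 and MMP1 gave r = 0.85 with each other, and MMP14 and TIMP1 r = 0.811. MMP14 was most like TAX1BP3 (r = 0.943), MMP2 most like WTIP (r = 0.937) and TIMP1 most like CD59 and SNX15 (both r = 0.964). The cluster genes on chromosome 11 did not run together as a block: MMP10 gave r = 0.668 with MMP1, 0.226 with MMP3 and -0.671 with MMP13. These values describe 12 libraries that share lines, siRNAs and the NC repeats described above.

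The rest of the pathway was read from fixed lists. Of 16 further MMPs, 10 passed the filter and 0 were called in KD against NC over both lines by edgeR, against 3.07% of all genes tested. Among these MMPs, 1 was called lower with siFAT1-1 and 1 with siFAT1-2, against 5.58% and 9.06% of all genes tested. MMP7, the matrilysin of epithelial cells, was at 10.2 to 32.6 CPM in HN6 and did not pass 0.117 CPM in HN30, and MMP8 and MMP27 had no count. Among the further inhibitors, SERPINB2, an inhibitor of plasminogen activators, was called lower, at -4.30 ± 1.04 (adjusted p = 0.0902). It was at 468 and 133 CPM in the NC group of HN6 and 31.7 to 95.5 CPM in its KD libraries, 360 and 3.53 CPM in the NC group of HN30 and 0.876 to 9.44 CPM in its KD libraries, so that, as for MMP9, the first NC repeat was highest in both lines.

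None of 7 tested plasminogen system partners, 8 ADAM and ADAMTS proteases and 6 genes of MMP activation and induction was called in KD against NC over both lines. That comparison called 3.07% of all genes tested. Of 11 tested cathepsins and transmembrane serine proteases, TMPRSS11E was higher (log2 fold change 1.72 ± 0.628, edgeR adjusted p = 0.234), and the lysosomal protease CTSS was lower (-1.11 ± 0.327, adjusted p = 0.150). For TMPRSS11E each KD library was above both NC libraries of its line, a separation whose share of all genes was not counted. Of 12 AP-1 and ETS factors, ATF3, a stress-induced factor, was higher (1.14 ± 0.368, adjusted p = 0.181). Of the 8 squamous markers, the desmosomal cadherin DSG3 was higher (1.32 ± 0.358, adjusted p = 0.124), and of 3 fibroblast and 2 endothelial markers tested 0 were called. Of 2 tested leukocyte markers, ITGAM was lower (-1.56 ± 0.666, adjusted p = 0.310), at no more than 3.28 CPM in any library, and its part in the values of MMP9 was not tested.

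Further genes of these lists passed with single siRNAs, and those that follow were chosen after their values were seen. With siFAT1-2, 2 of 10 further inhibitors were called lower and 0 higher, against 9.06% of all genes tested. For 8 ADAM and ADAMTS proteases the counts were 1 and 0, and for 12 AP-1 and ETS factors 2 and 1. With siFAT1-1 the same counts were 1 and 1, 0 and 1, and 1 and 0, against 5.58% of all genes tested. TIMP2, an inhibitor that also takes part in the activation of MMP2 by MMP14, fell by 1.47 ± 0.215 on the log2 scale with siFAT1-2 (edgeR adjusted p = 0.00319) and gave -0.32 ± 0.210 with siFAT1-1 (adjusted p = 0.427). The difference between the siRNAs was 1.15 ± 0.213 (adjusted p = 0.00524). ADAM12, a membrane-anchored metalloprotease, fell by 2.31 ± 0.354 with siFAT1-2 (adjusted p = 0.00350) and was higher with siFAT1-1 than with siFAT1-2 by 2.80 ± 0.361 (adjusted p = 0.00105). FOSL1, an AP-1 subunit, fell by 1.27 ± 0.245 with siFAT1-2 (adjusted p = 0.00900) and gave -0.66 ± 0.243 with siFAT1-1 (adjusted p = 0.167), and the difference between the siRNAs was 0.61 ± 0.242 (adjusted p = 0.0972).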

How the data were processed

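The authors cleaned the reads of poly(A) libraries with scripts of their own, removing reads with poly-N stretches, duplicates and low quality, and aligned them to hg38. The submitters' processing notes name HISAT2 and featureCounts. The deposited values were raw counts, whole numbers per gene and library, with 12 libraries in 1 table. The annotation and strand setting are not given in the sources used here.

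Tests were run on the whole table with edgeR 4.0.16 (TMM, filterByExpr at a minimum count of 10, then glmQLFit with glmQLFTest), with a term for the line where both lines entered, in R 4.3.3. Adjusted p-values are Benjamini-Hochberg values over all genes tested, and limma 3.58.1 and DESeq2 1.42.0 served as alternatives. A gene was called at the thresholds of the study (unadjusted P under 0.05, log2 fold change above 1 in size). The SE of a fold change is its size divided by the square root of F, and log2 CPM used a prior count of 2. Lengths, positions and promoters were handled in Python 3.11.15 with numpy 2.4.6, pandas 2.3.3 and matplotlib 3.10.9. The fit was tested on simulated data.

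The members and the gene lists were chosen with earlier results of these data known. Named genes were the 10 members, FAT1, at most 3 genes per list and direction that were called in KD against NC over both lines, those called in both single-line fits, and the 3 genes most correlated with each member, of which some are printed. TIMP2, ADAM12, FOSL1, MMP7 and single genes of the cell type marker lists are named outside this rule and were chosen after their values were seen. The labels mark each repeat as a separate time, which pairs libraries within a line. The correlation across genes between repeat 1 libraries, each taken as the deviation from the mean of its condition, was in HN6 0.0778 for NC and siFAT1-1, 0.219 for NC and siFAT1-2 and 0.242 for both siRNAs against FAT1, and in HN30 -0.0336, 0.405 and -0.0215. A replicate block was therefore fitted as an alternative. Other alternatives were DESeq2's size factors, upper-quartile normalization, no filter, robust fitting, no cell line term, a fit of all 6 conditions, each library left out, and each repeat on its own. With 2 repeats per condition, p-values measure the spread between these libraries. In KD against NC that spread also holds any difference between the 2 siRNAs. Over both lines it also holds any difference in effect between the lines. Limits for zero counts use 3 counts and cover counting error only. Some genes that the naming rule selects are not reported here.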

Additional observations from a re-analysis of the deposited data

Results flagged for a closer look

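In the direct comparison of the 2 siRNAs against FAT1, 2 of the 10 genes passed the thresholds of the study, against 12.4% of all genes tested. The log2 fold change of siFAT1-1 against siFAT1-2 over both lines was 1.66 for PLAU and 1.21 for MMP2, with edgeR adjusted p-values of 0.0766 and 0.0826, so neither passed the correction, and each call was kept in 10 of the 12 fits that left out 1 library. PLAU was higher with siFAT1-1 in both libraries of HN30, and in HN6 the libraries overlapped. MMP2 was higher in both libraries of both lines.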

How the results depend on the processing

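Values below are numbers of the 10 genes called, or log2 fold changes. For KD against NC over both lines, 2 were called, and 1 with limma-voom, with a replicate block and with no cell line term. Of all 13887 genes, these 3 settings called 515, 455 and 231, against 426 in the main fit. Within repeat 2 only, chosen after seeing the data, 0 were called and signs turned for MMP1 (1.36), MMP2 (0.16), MMP3 (-0.46), MMP10 (0.18), MMP14 (0.082), PLAU (0.17) and PLAUR (0.22). MMP13 turned to 0.14 with limma-voom, 0.092 with no cell line term and 1.36 within repeat 1 only. With no cell line term MMP9 was not called for KD against NC (-3.08) or for either siRNA (-2.54 and -3.95). In HN30, limma-voom and the replicate block called 0. For siFAT1-1, limma-voom and no cell line term called 0, and for siFAT1-2 no cell line term called 1. For the lines in the NC group, the replicate block called 6, and 3663 of all 13672 genes tested. The replicate block otherwise changed 1 call, MMP10 between the lines over all siRNAs (2.09, adjusted p = 0.0653). The cause of these changes was not tested.

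Leaving out 1 library in turn gave 1 to 2 genes for KD against NC over both lines. It gave 0 to 2 for siFAT1-1, 1 to 4 for siFAT1-2 and 0 to 3 between the siRNAs. Over all 13795 to 14077 genes, the counts in that order were 308 to 606, 520 to 969, 1072 to 1656 and 1434 to 1934. No counts are given for the single lines, the interaction and the lines in the NC group. Some of those fits were left with 1 NC library of a line. Over both lines MMP1 ran from -2.73 to 0.092, MMP2 from -0.42 to 0.14, MMP10 from -2.11 to 0.035, MMP13 from -1.42 to 0.95 and PLAUR from -0.29 to 0.12, and MMP1 in HN30 ran from -4.23 to 1.86. The values above 0 came without the first NC library of HN30 (MMP1, MMP10, PLAUR), the second (MMP13) or the first NC library of HN6 (MMP2, PLAUR). Depth limits MMP3, MMP10, MMP13 and, in HN30, MMP9, which each had at least 1 library without a count. MMP9 had 0 to 18 counts in all HN30 libraries but the first NC library.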
